A study of Homo sapiens with 12 samples.

Results

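Wild type QKI-5 and a QKI-5 carrying the substitutions K120A and R124A, both tagged with myc, were compared for the RNA sites at which each was recovered. QKI (Quaking) is an RNA-binding protein of the STAR family. It contacts single-stranded RNA through its KH domain, a fold shared by many RNA-binding proteins, and QKI-5 is its nuclear isoform, known for binding introns and UTRs and for setting the use of nearby exons. The lysine and arginine exchanged for alanine are numbered by residue, and the double substitution is called the mutant here. The comparison rested on 4 of the 12 libraries of the series, 2 of wild type and 2 of the mutant, and each was read against its own size-matched input through the authors' values.

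The assay was enhanced crosslinking and immunoprecipitation (eCLIP), in which RNA crosslinked to a protein by UV light is pulled down with that protein and sequenced. The labels name the cells HEK293xT or HEK293T, an established human embryonic kidney line, although the design note of the series speaks of embryonic stem cells. Cells in 10 cm dishes took up 10 µg of a plasmid carrying either myc-QKI-5 or myc-QKI-5(K120A; R124A), were kept for 72 hours and were crosslinked at 254 nm with 400 mJ/cm2, and an anti-MYC antibody was used for both. The labels give no deletion of the cells' own QKI gene, which both groups therefore share. Untransfected cells, pulled down with an anti-QKI antibody in 2 libraries, served here only to place sites and to supply gene names. Whether both libraries of a group stem from independent cultures is not stated in the labels, so a p-value reflects only how far these libraries scatter, and that scatter may be technical. Neither the amount of tagged protein recovered nor the read depth was analysed here, and no value is scaled to them.

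The files list clusters of reads with a log2 fold of immunoprecipitation over input and a −log10 p. Wild type 1 and 2 listed 226962 and 273269 clusters, and mutant 1 and 2 listed 231814 and 272728, so the number of clusters did not set the groups apart. Only clusters with a fold above 0 are in these lists, and a cluster that is not listed may be absent, not above input, or too weak to have been called at the unknown depth. Lost therefore means not listed, in what follows. Clusters with a log2 fold and a −log10 p that both reached 3 are called enriched. Mutant 2 stood apart from mutant 1, with 829 against 94 enriched clusters.

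The places enriched for wild type QKI-5 were found again in the other wild type library and seldom in the mutant. Of 4698 enriched clusters of wild type 1, 97.7% were overlapped on the same strand by some cluster of wild type 2, 8.32% by one of mutant 1 and 8.54% by one of mutant 2. For the 5171 enriched clusters of wild type 2 the shares were 97.0% in wild type 1, 7.68% in mutant 1 and 8.26% in mutant 2. Among the clusters that were not enriched, 30.5% of wild type 1 had a partner in wild type 2, against 12.2% and 14.1% in the mutant libraries. Both mutant libraries thus overlapped enriched wild type clusters less often than they overlapped the other clusters of the same library, whereas the partner library overlapped them more often. In the other direction, 76.6% of the 94 enriched clusters of mutant 1 were overlapped in each wild type library, and of the 829 of mutant 2 the shares were 34.0% and 32.3%. Between the mutant libraries, 75.5% of the enriched clusters of mutant 1 were overlapped in mutant 2, and 47.9% of those of mutant 2 in mutant 1.

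**Figure D1:**
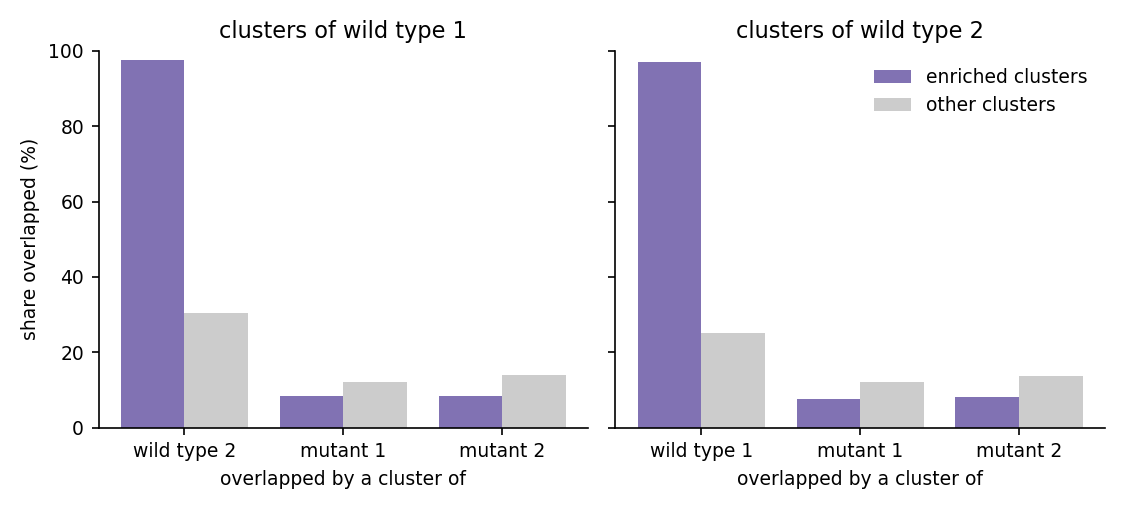
Share (%) of the clusters of wild type 1 (left) and wild type 2 (right) that were overlapped on the same strand by a cluster of each other tagged library, for enriched clusters (purple) and all other clusters (grey). Enriched clusters were overlapped at 97.7% and 97.0% by the partner library and at 7.68% to 8.54% by the mutant libraries.

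Enriched clusters of the wild type libraries that overlapped or touched were joined into regions, and 2425 regions whose best-supported cluster was enriched in both wild type libraries are called sites here. Wild type values chose them and are given as a description. The mutant values had no part in that choice. A site was called lost where neither mutant library listed a cluster, weakened where the highest mutant fold lay at least 1 log2 unit below the lowest wild type fold, and kept otherwise. By this rule 2062 sites were lost (85.0%, 95% exact interval 83.5 to 86.4), 342 were weakened (14.1%, 12.7 to 15.6) and 21 were kept (0.866%). Mutant 1 listed a cluster at 208 sites and mutant 2 at 221, with a median log2 fold of 1.04 and 1.02 where listed. Only 8 sites were enriched in both mutant libraries.

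The share lost can be set beside that at regions that were not enriched. Of 63060 regions listed in both wild type libraries but enriched in neither, 74.7% were also listed in neither mutant library. Most of these, 43818, had a lower wild type −log10 p under 0.5, so they were unlike the sites in support. Between the wild type libraries, 97.7% and 97.0% of enriched clusters were overlapped by the partner, but only 30.5% and 25.2% of the other clusters. How far drop-out between libraries makes up the share at regions that were not enriched was not tested. Regions of like −log10 p are compared further below. The share weakened rests on both mutant libraries: it was 8.66% without mutant 1 and 8% without mutant 2, because a site listed in 1 mutant library became lost without it.

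The lost sites with the highest folds at named genes lay in 3′ UTRs, in introns and in noncoding RNA. The strongest lay in the HNRNPK 3′ UTR (HNRNPK is an hnRNP RNA-binding protein; hg19 chromosome 9, 86584476 to 86584640, minus strand), at a log2 fold of 7.75 in wild type 1 and 7.20 in wild type 2. Both untransfected anti-QKI libraries had it too, at 7.53 and 7.76, and neither mutant library listed a cluster there. A neighbouring site in the same UTR (86584818 to 86584989) was weakened rather than lost, at 7.02 and 6.30 in wild type, 4.46 in mutant 1 and no cluster in mutant 2. Introns of the transmembrane collagen gene COL13A1 (7.22 and 7.67) and of CELF1, a splicing regulator gene (7.80 and 6.85), were lost as well. So was an exon of MIAT, a nuclear long noncoding RNA (7.60 and 6.83). The 3′ UTR of NAA15, which encodes a subunit of an N-terminal acetyltransferase, was at 6.87 and 7.58 in wild type, and an intron of ZNF423, a zinc finger transcription factor gene, at 7.72 and 6.88. For EXT1 (8.53 and 6.28), which encodes a heparan sulfate glycosyltransferase, and ABCC8 (6.23 and 8.47), the sulfonylurea receptor gene, the wild type libraries differed by more than for the others named here. SPPL2B and CLYBL completed the leading 10 genes, with wild type folds between 6.66 and 7.93.

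At weakened sites at least 1 mutant library listed a cluster, at a fold below both wild type libraries. A single mutant library did so at 290 of the 342. The support was low, with a median −log10 p of 0.32 in mutant 1 and 0.45 in mutant 2 against 13.1 and 14.8 in wild type. At the other 52 both did, and the mean difference from wild type ranged from 1.90 to 7.58 with a median of 3.68. Across all 342, the lowest wild type fold exceeded the highest mutant fold by 1.01 to 7.83, with a median of 2.85. At a RAB7A intron (RAB7A is a GTPase of late endosomes; chromosome 3, 128470955 to 128471162, plus strand), the folds were 9.51 and 9.44 in wild type and 1.93 and 1.98 in the mutant. An intron of MRPL34, a mitochondrial ribosomal protein gene, went from 5.89 and 6.10 to 0.02 and 0.05, which is next to no enrichment over input. Replicates lay close together at both sites and the groups were far apart.

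Other sites in both mutant libraries with large mean differences had a wider spread within a group. An intron of GPHN, the gephyrin gene, had 7.05 and 5.84 in wild type against 1.19 and 0.11 in the mutant. An intron of ZNF12, a zinc finger gene, had 7.55 and 6.74 against 2.41 and 1.11. In KCNQ5, a voltage-gated potassium channel gene, the folds were 6.86 and 6.38 against 2.41 and 1.11. Each of these pairs of groups was still separated by more than 3 log2 units. AC009262.2, LYRM4, MT-ND5, ZFP1 and LRRC16A completed the leading 10 of these, and their mutant folds lay between 0.19 and 2.11.

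At kept sites at least 1 mutant library came within 1 log2 unit of the lower wild type library, or above it. Of the 21 kept sites, 14 were listed in both mutant libraries and 7 in 1. At least 1 mutant library was enriched at 12 of the 21, and both were at 7. None of the sites listed in 1 mutant library was enriched there, and the mutant −log10 p at them was 0.69 to 1.53. A kept site therefore need not have a well-supported mutant cluster. The median log2 fold of the 21 was 3.87 and 4.57 in wild type and 3.49 and 3.65 in the mutant libraries that listed them. The site with the highest folds was in an intron of ARHGAP24, which encodes a GTPase-activating protein (chromosome 4, 86875795 to 86875832, plus strand). Wild type reached 8.56 and 7.74 there, and the mutant 7.54 and 6.15. A neighbouring ARHGAP24 site (86875722 to 86875766) had 5.80 and 5.30 against 5.67 and 4.81, so the groups overlapped there. An intron of the noncoding transcript LINC00471 had 6.78 and 6.01 against 6.21 and 3.91, where mutant 1 lay within the wild type range and mutant 2 below it.

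Copies of U6, a small nuclear RNA of the spliceosome that base-pairs at 5′ splice sites, were the only gene class among the lists examined whose sites were all kept. All 4 U6 sites were in both mutant libraries. RNU6-671P had 6.12 and 5.80 in wild type and 4.06 and 5.51 in the mutant. RNU6-49P had 5.68 and 4.19 against 4.41 and 4.19, RNU6-222P had 4.27 and 4.57 against 4.0 and 2.91, and RNU6-40P had 4.07 and 3.28 against 3.82 and 4.86. At RNU6-40P the higher mutant library exceeded both wild type libraries. All 4 carry names of U6 pseudogenes. U6 copies resemble one another in sequence, so the copy a read came from is uncertain and the 4 sites may not be separate.

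The remaining kept sites had lower or less even folds. The 3′ UTR of HSPA13, a gene of the Hsp70 family, had 3.22 and 3.63 in wild type against 3.0 and 1.24 in the mutant. EPC1, which encodes a subunit of a histone acetyltransferase complex, had 3.61 and 5.57 against 2.41 and 3.91 in an intron, and NHSL1 had 3.76 and 4.63 against 0.78 and 2.91. Mutant replicates differed by over 1 log2 unit at each of these 3 genes. An ANKRD30BL intron and unnamed sites on chromosomes 22 and X were also among the 14. Those listed in 1 mutant library were in SDHA, CREB5, ADAM9, GAPVD1, PEAK1, ANKRD17 and KDM6A, with single mutant folds from 2.11 to 2.93. Just inside the margin were the kept sites of KDM6A, NHSL1, ANKRD17 and GAPVD1, whose lowest wild type fold exceeded the highest mutant fold by 0.78, 0.85, 0.92 and 0.99. Just outside it were the weakened sites of IPO7, ZNF267 and CHD6, at 1.01, 1.14 and 1.24.

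The number kept depended on the thresholds and on single libraries. It was 109 with the fold threshold at 2, 7 with it at 4, 63 with a margin of 2 and 48 when the authors' reproducible wild type peaks defined the sites. Without mutant 1 it was 11 and without mutant 2 it was 14, while it was 34 without either 1 of the wild type libraries, where more sites qualify.

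**Figure D2:**
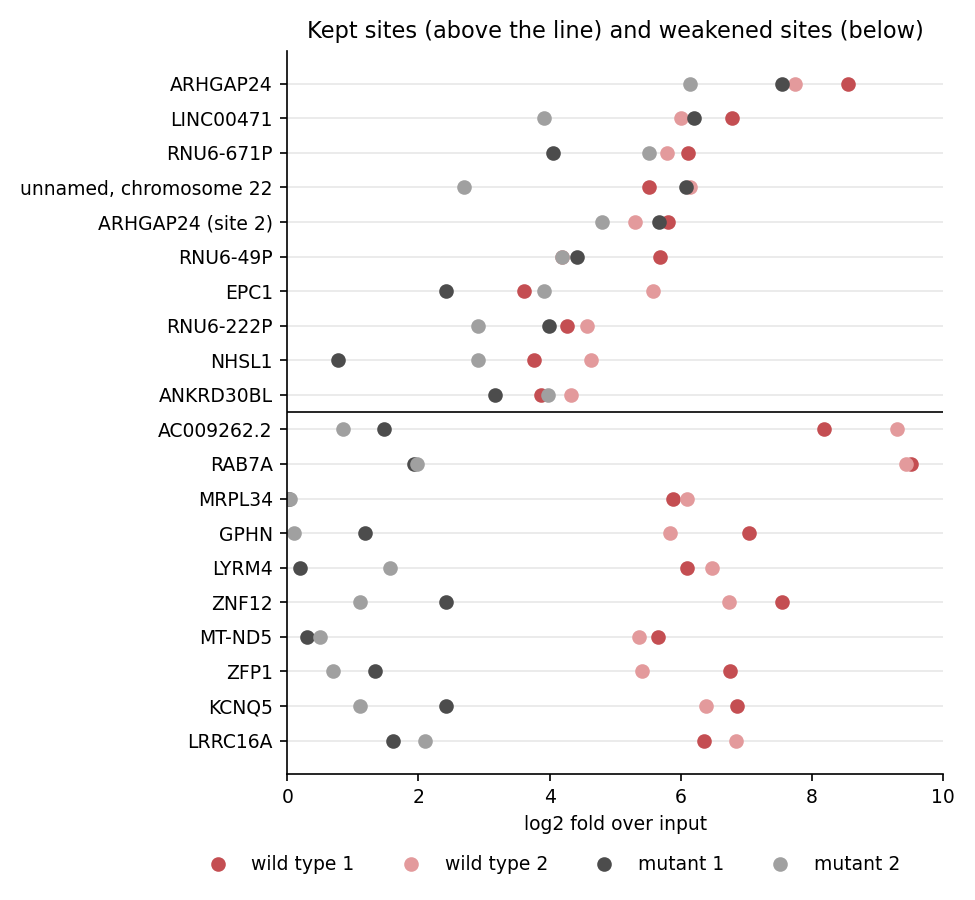
Log2 fold over input in each library (points, coloured by library) at the 10 sites with the highest mean wild type fold among kept sites listed in both mutant libraries (above the line) and at the 10 sites with the largest differences among weakened sites listed in both mutant libraries (below). Mutant points reach up to 7.54 among kept sites and stay at or below 2.41 among these weakened sites, whose wild type points all exceed 5.

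**Figure D3:**
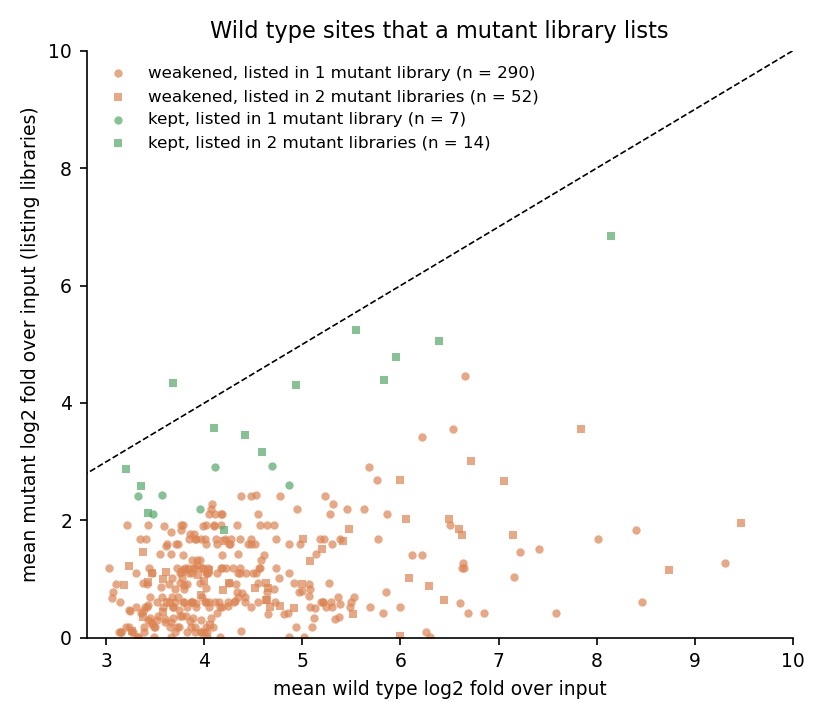
Mean log2 fold over input in wild type (horizontal) against the mean over the mutant libraries that list the site (vertical), for all weakened (orange) and kept (green) sites; squares are listed in both mutant libraries and circles in 1, and the dashed line marks equal values. The 2062 lost sites have no mutant value and are not plotted.

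Genes known from earlier work as QKI targets followed the bulk of the sites. Of 34 listed names, which include aliases of the same gene, 12 held 20 sites, of which 17 were lost, 3 weakened and 0 kept. In QKI itself, 3 intronic sites and a 3′ UTR site were lost. The UTR site was at 7.92 in wild type 1 and 4.55 in wild type 2, and the introns were between 3.44 and 4.90. MICAL3, which encodes an actin-oxidising monooxygenase, held 4 intronic sites. At the strongest (chromosome 22, 18359459 to 18359933, minus strand) the folds were 9.11 and 9.50 in wild type, no cluster in mutant 1 and 1.28 in mutant 2. A second was also listed only in mutant 2, at 1.52 against 6.74 and 8.09, and the other two were lost. The 2 sites each of ADD3, a membrane-skeleton adducin gene, and CTNNB1, the β-catenin gene, were lost from wild type folds of 3.32 to 3.84.

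Genes of other tissue-specific splicing regulators, counted together with QKI and CELF1, held 12 sites, of which 11 were lost and 1 was weakened. The weakened site was in an intron of MBNL2, a muscleblind gene, at 4.02 and 3.96 in wild type and 1.91 in mutant 2 alone. Its paralogue MBNL1 lost 3 intronic sites and PTBP2, a polypyrimidine-tract-binding protein gene, lost 2. Among hnRNP and SR genes, HNRNPA1 and PCBP2 each had a lost site at folds between 3.32 and 3.62, beside the HNRNPK pair. Of the protein genes of the U6 tri-snRNP, only LSM3, which encodes a ring protein of U6, had a site (3.27 and 4.69), and it was lost.

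Cytoskeleton and adhesion genes held 28 sites at 17 genes, with 21 lost and 7 weakened, and axon guidance genes held 14 sites at 6 genes, with 13 lost and 1 weakened. Over all sites 85.0% were lost and 14.1% weakened, and the 95% intervals of the share lost, 55.1 to 89.3 and 66.1 to 99.8, both include that value. FHL1, a LIM-domain protein gene, had a pair of 3′ UTR sites that were both weakened, from 6.93 and 6.76 to 0.43 in mutant 2 alone, and from 4.97 and 4.31 to 0.90 and 0.39. CLASP2, a microtubule plus-end gene, had 2 lost sites and a weakened one. SLIT2, which encodes a secreted guidance ligand, lost all 7 of its sites, the strongest from 6.61 and 5.68. ROBO1, the gene of its receptor, lost 2 of 3, and the third was at 3.32 and 4.19 in wild type and 0.93 in mutant 1 alone.

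Some groups of few sites had lost sites only, beside a share of 85.0% over all sites. The nuclear long noncoding RNA genes MIAT, FTX and PVT1 had 5 sites, all lost. Ribosomal protein genes had 6 lost sites, among them RPL31 (4.08 and 3.73 in the 3′ UTR) and RPS20 (4.90 and 4.27), and histone genes had 3. Genes of cardiac muscle and neuronal markers held 0 sites, as did transfer RNA genes and small nuclear or nucleolar RNAs other than U6.

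Mitochondrial transcripts ran the other way from most of the genome in how often they were listed. Of 20 sites on the mitochondrial genome, 17 were weakened, 3 lost and 0 kept, while of 2405 nuclear sites 13.5% were weakened and 85.6% lost. The 2 sets were unlike in support. The median −log10 p was at the cap of 400 in both wild type libraries at mitochondrial sites, and 7.94 and 8.67 at nuclear sites. Of all 77 sites at a lower wild type −log10 p of 50 or above, mitochondrial ones included, 47 were weakened. Mitochondrial and nuclear sites were not compared at equal support. Mutant 2 listed 17 of the 20, at log2 folds of 0.10 to 1.53 with a median of 0.55, and mutant 1 listed 2, at 0.30 and 0.49. Wild type folds there were 3.02 to 7.19 in wild type 1 and 3.69 to 7.39 in wild type 2. In MT-CO2, a cytochrome oxidase subunit gene, the folds were 7.19 and 7.12 in wild type and 1.04 in mutant 2. A site in MT-ND5, a complex I subunit gene, had 7.15 and 7.29 against 1.45 in mutant 2, and another had 5.66 and 5.37 against 0.30 and 0.50. Without mutant 2 all but 2 of these sites would count as lost, so the weakened class of mitochondrial sites rests on that library.

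By position in the transcript, lost sites made up 86.6% of 1569 sites in distal introns and 89.2% of 333 in introns near splice sites. The share was 93.6% (82.5 to 98.7) of 47 sites at 3′ splice sites and 86.1% (70.5 to 95.3) of 36 at 5′ splice sites. Sites in 3′ UTRs were lost less often, at 72.3% of 130 (63.8 to 79.8), as were sites in noncoding exons, at 72.4% of 76 (60.9 to 82.0). Both intervals lie below that of all sites, but sites within a gene share a transcript, the intervals cover counting error only, and no test was run. The HSPA13 site was 1 of the 2 kept UTR sites, and the 4 kept sites in noncoding exons were the U6 copies. Sites in noncoding exons also included the mitochondrial MT-RNR1 (lost) and MT-TV (weakened). Their share lost was not computed without the mitochondrial sites and the U6 copies, so how far its interval rests on them was not tested. Coding exons of nuclear genes held 17 sites, of which 14 were lost and 3 weakened.

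**Figure D4:**
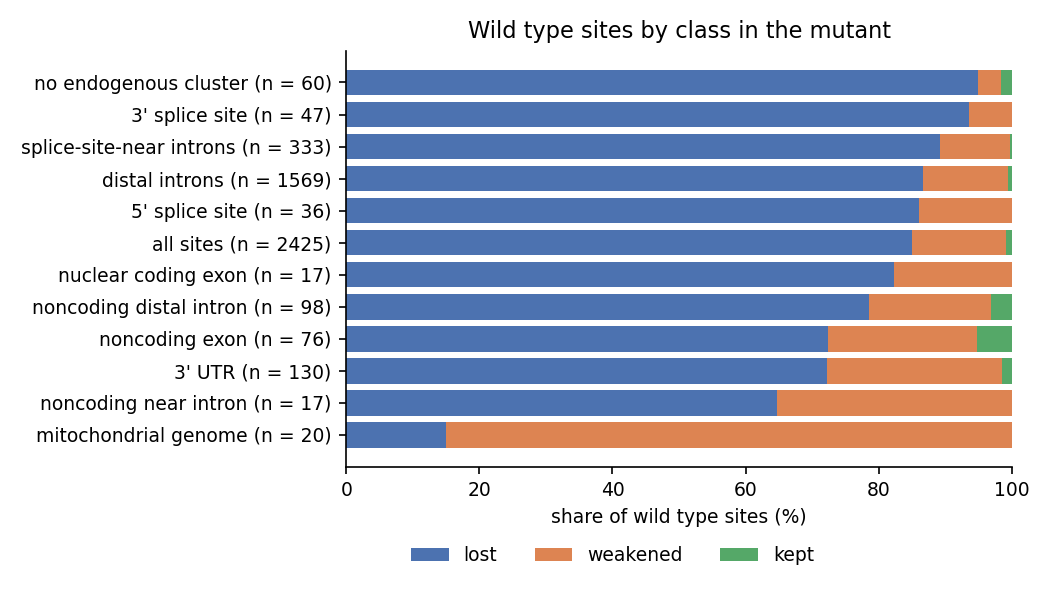
Share (%) of wild type sites that were lost (blue), weakened (orange) or kept (green) in the mutant, by annotated position in the transcript, with the number of sites in each class; coding exons are shown for nuclear genes only and mitochondrial sites as a class of their own, which may also be counted under their transcript position. Lost sites fill 93.6% of the 3′ splice site bar, 72.3% of the 3′ UTR bar and 15% of the mitochondrial bar.

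How often a mutant cluster was listed moved with the support of the site in wild type. By the lower of its −log10 p values in the wild type libraries, 93.7% of 351 sites between 3 and 4 were lost, 79.5% of 498 between 10 and 20, 69.8% of 182 between 20 and 50, and 37.7% of 77 at 50 or above. In this last class 47 sites were weakened and 1 was kept. The classes of transcripts with fewer lost sites were not compared at equal support, and read depth at a site was not tested as a part of these differences. At like −log10 p, regions that were listed in both wild type libraries without being enriched were listed more often in the mutant. Such regions reached that −log10 p at a log2 fold under 3, so they matched the sites in −log10 p alone. Of the sites, 92.6% were lost at 5 to 7 and 86.6% at 7 to 10. Of 175 regions that were not enriched, at a −log10 p of 5 to 10, 55.4% were in neither mutant library, and of 33 at 10 to 20, 33.3%.

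**Figure D5:**
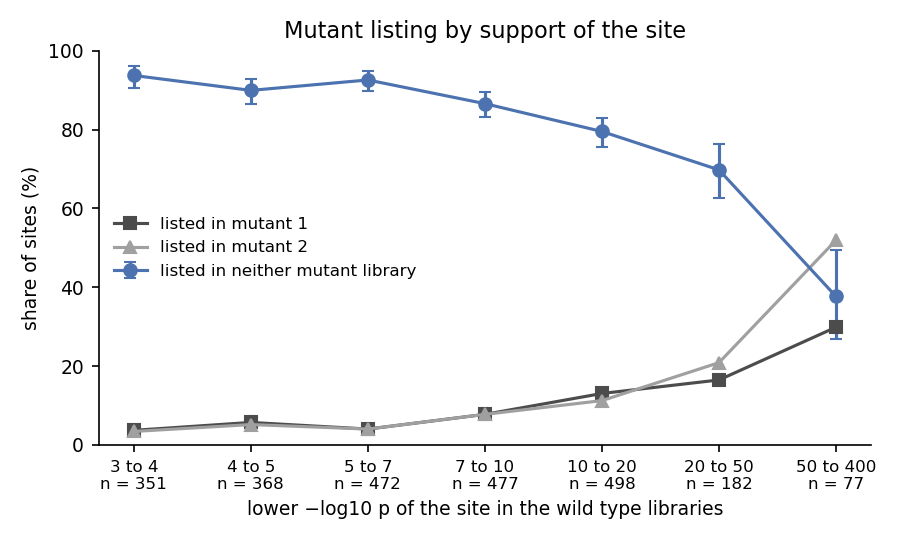
Share (%) of sites listed in neither mutant library (blue, bars are 95% exact binomial intervals), in mutant 1 (dark grey) and in mutant 2 (light grey), by the lower −log10 p of the site in the wild type libraries; n is the number of sites in each class. The share in neither library goes from 93.7% in the lowest class to 37.7% in the highest.

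Sites that untransfected cells shared were also weakened more often. On the authors' reproducible peaks of endogenous QKI, 1716 sites fell into 1417 lost, 283 weakened and 16 kept, and away from them 709 fell into 645, 59 and 5. Where the mean endogenous log2 fold was 7 or more, 49.4% of 79 sites were lost, against 89.9% of 487 sites at 3 to 4. Below that the share was 88.1% of 277 sites at 2 to 3 and 88.2% of 144 under 2, so it did not rise further. Wild type support went along with it: the median −log10 p in wild type 1 was 5.39 under 2 and 53.2 at 7 or more. The endogenous fold was not separated from that support. The split by the lower endogenous −log10 p ran the same way, with 90.9% of 537 sites lost under 3 and 50.3% of 161 at 50 or above.

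Sites were in 1667 named genes, of which 1342 had lost sites only, 126 both lost and weakened, 181 weakened only and 18 at least 1 kept site. A single site was all that 1221 of them held. Lost sites only were found in 230 of the 315 genes with 2 sites and in 74 of the 131 with 3 or more. Over all sites 85.0% were lost, and the more sites a gene held, the more chances it had to hold 1 of another class. Mixed classes are therefore not read as a trait of these genes. Loss of sites went with fewer clusters over the gene in some of these and not in others. In SLIT2 the span between the outermost endogenous clusters of that name held 218 and 240 clusters in wild type and 228 and 188 in the mutant, although all 7 sites were lost. NLGN1, which encodes the synaptic adhesion protein neuroligin, lost all 6 sites while its clusters numbered 225 and 328 against 322 and 297. PRRC2C also lost all 6, and its clusters went from 101 and 99 to 38 and 33. GPHN had 6 lost sites and 1 weakened site, with 176 and 211 clusters against 179 and 176, and DIAPH3, a formin gene, had 5 and 1, with 274 and 330 against 205 and 204. ADK, the adenosine kinase gene, had 4 and 1, with 197 and 239 against 184 and 192. G2E3, a ubiquitin ligase gene, had 4 lost and 2 weakened sites, with 59 and 56 against 32 and 29. FAM157A was the barest of those with the most sites, with 9 and 8 clusters in wild type, 0 in mutant 1 and 2 in mutant 2.

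In 7 genes a kept site lay beside lost ones, and 6 of them are described here. At the kept sites of these 6 no mutant library was enriched, and the mutant −log10 p was 0.38 to 1.48. ANKRD17 held 5 sites: 3 lost, 1 weakened and an intronic kept site at 3.94 and 3.02 in wild type and 2.11 in mutant 2. NHSL1 also held 5, with 2 lost, 2 weakened and 1 kept. In KDM6A, a histone H3 lysine 27 demethylase gene, 4 intronic sites were split into 1 lost, 2 weakened and 1 kept. SDHA, a succinate dehydrogenase gene, had adjoining intronic sites, of which the one at 3.33 and 6.39 was kept with 2.61 in mutant 1 and the one at 3.77 and 3.19 was lost. ADAM9 and PEAK1 each had 1 kept and 1 lost site.

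Places chosen without any tagged library gave the same order of groups. The authors' 12409 reproducible peaks of endogenous QKI merged into 10206 loci. A cluster was listed at 86.2% and 83.1% of them in wild type and at 10.4% and 10.7% in the mutant (84.7% ± 2.19 against 10.5% ± 0.166, SD, n = 2 each, exact two-sided permutation p = 0.333). Enriched clusters were at 26.5% and 23.9% against 0.118% and 0.167%, and the median log2 fold of listed clusters was 2.53 and 2.44 against 0.83 and 0.84. Each difference was larger than the spread between libraries, and 0.333 is the smallest p that 2 libraries against 2 can give.

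Over all 10206 loci, 26.5% and 23.9% were enriched with wild type protein and 0.118% and 0.167% with the mutant. At such shares, 0 enriched mutant loci in a list does not set that list apart. Known QKI targets held 82 of these loci, 25 and 20 of them enriched with wild type protein and 0 in each mutant library. At 148 loci of cytoskeleton and adhesion genes the numbers were 31 and 35 against 0 and 0, and at 76 loci of axon guidance genes 19 and 15 against 0 and 0. Splicing regulator genes had 54 loci, with 14 and 13 against 0 and 0. The 22 loci of hnRNP and SR genes had 5 and 5 against 1 and 0. The 18 U6 loci differed from all of these: 15 were listed in each of the 4 libraries, 8 and 4 were enriched in wild type and 6 and 5 in the mutant, with medians of 3.58 and 2.44 against 3.41 and 2.74. The 20 mitochondrial loci were listed in full in wild type, at 2 loci in mutant 1 and at 16 in mutant 2.

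Single regions can be tested only where all 4 tagged libraries list a cluster, which leaves out nearly all lost sites. Only 4 tested regions lay on lost sites. Over 5481 such regions limma called 36 higher in wild type (0.657%) and 1 lower (0.0182%) with Benjamini-Hochberg adjustment and a threshold of 0.05. Without the adjustment, 280 were higher and 398 lower at a p under 0.05. Of the 36, 33 lay on weakened sites, 2 on lost sites and 1 on no site. Their differences ran from 3.02 to 7.58 with a median of 3.88. The 14 tested regions on kept sites had a median difference of 1.07, with 13 of them higher in wild type and 0 called. The classes were made from the same values, so how the calls fall over them is a description.

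Beyond the introns and mitochondrial genes described above, the called regions included further UTRs and introns. The 3′ UTR of ERH was at 5.10 and 4.72 in wild type and 0.72 and 0.28 in the mutant (difference 4.41, SE 0.49, limma adjusted p = 0.00927). The 3′ UTR of TTF2, a transcription termination factor gene, was at 7.23 and 8.46 against 3.55 and 3.56, so that it was enriched in both mutant libraries and yet 4.29 lower (SE 0.56, limma adjusted p = 0.0173). An intron of TAOK1 was at 3.46 and 4.06 against 0.19 and 0.11; the mutant clusters touched the region but not the site, which is why the site counts as lost. The region lower in wild type was unnamed and lay on chromosome 9, at 0.58 and 0.70 against 3.41 and 4.56.

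Few lists had called regions. Mitochondrial genes had 3 of 9 regions higher in wild type, with a median difference of 2.57, and cytoskeleton genes 1 of 26, at FHL1. Known QKI targets had 0 of 17 (median 0.16), U6 0 of 14 (−0.04), hnRNP and SR genes 0 of 35 (−0.20) and transfer RNA genes 0 of 12 (−0.48), where all regions had a median of −0.26. Centring each library on its median moved that of all regions to 0.01, so the medians are to be read relative to it, and it raised the regions called higher to 71. The number of calls fell with fewer mutant libraries: 4 regions were higher without mutant 1, 4 without mutant 2, 68 without wild type 1 and 57 without wild type 2, and those lower were 0, 0, 5 and 1. The sizes moved little at some called regions and more at others. Over 21 called regions with large differences, leaving out a mutant library changed the difference by a median of 0.24 and by up to 0.83. Without mutant 1 and without mutant 2, it was 7.5 and 7.55 at RAB7A, 5.02 and 5.21 at MT-ND5 and 4.28 and 4.30 at TTF2. The mutant libraries lay close together at these 3 regions. At PDE3B, where they lay further apart, it was 2.96 and 4.63.

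Regions enriched with the mutant were fewer, and about as many of those in both mutant libraries were enriched in wild type as were not. In all, 843 regions were enriched in at least 1 mutant library and 21 in both. Of these 21, 8 were enriched in both wild type libraries, namely the ARHGAP24 pair, LINC00471, RNU6-671P, RNU6-49P, RNU6-40P, ANKRD30BL and TTF2. In 1 wild type library 3 were enriched, among them RNU6-44P, whose mutant folds were 4.31 and 4.27 beside wild type folds of 4.37 and 3.61. The arginine transfer RNA gene tRNA-Arg-TCG-1-1 had mutant folds of 4.5 and 4.13 beside wild type folds of 3.89 and 1.97, and was below input in untransfected cells. The other 10 were enriched in neither wild type library, although 7 of them were listed in both, and 8 had no endogenous cluster to name them. The 2 that could be named were in introns of PID1, at 4.07 and 4.11 in the mutant against 2.00 and 3.61, and of ANKRD30BL, at 3.17 and 3.54 against 0.76 and 2.21.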

How the data were processed

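Per the submitters' processing notes, UMI-tools, cutadapt, SAMtools and STAR were used, with build hg19. Their versions, and which peak caller was used, are not given in the sources at hand. The deposited clusters carry the authors' log2 fold of immunoprecipitation over size-matched input. They also carry the authors' −log10 p, capped at 400.

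Clusters of 4 tagged libraries were matched on the same strand by at least 1 base with Python 3.11.15 (pandas 2.3.3, scipy 1.17.1). Each region took, per library, the value of its cluster with the highest −log10 p. Names came from the endogenous clusters, 98.1% of which had 1 usable gene name. Shares have 95% Clopper-Pearson intervals, which are exact and reflect counting error only. The region test was limma 3.58.1 (lmFit, eBayes) in R 4.3.3 with no replicate block, and same-numbered libraries did not deviate together. On simulated data of this comparison over 5481 regions the calls were 12 of 50 for a simulated log2 difference of 2, 36 of 50 at 3, 48 of 50 at 4 and 5 of 5281 unshifted. Comparisons over libraries used exact two-sided permutation tests.

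The members, gene lists and rules were chosen with earlier results of these data known. Named were the leading 10 lost and 10 weakened sites, all kept sites (1 is not reported here), called regions (only some printed), list members with the most sites, the 8 genes with the most sites, genes with kept and lost sites, and regions enriched in the mutant. ERH and TAOK1 were picked among called regions after their values were seen. Leaving out libraries, other thresholds and other fits were tried as alternatives.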

Additional observations from a re-analysis of the deposited data

How the results depend on the processing

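The share of sites lost was 82.6% with the fold threshold at 2, 81.9% with it at 4, 82.2% with the −log10 p threshold at 5 and 87.3% with overlap over at least 50% of the shorter cluster, and 86.5% to 91.4% when single libraries were left out. The share weakened was 17.2% at a fold of at least 4, 16.8% at the stricter −log10 p, 11.9% with the stricter overlap and 12.4% with a margin of 2, and 8% to 12.7% without single libraries. The number kept was 109 at a fold of at least 2, 7 at 4, 63 with a margin of 2, 48 at the authors' wild type peaks, and 11 to 34 without single libraries. At endogenous loci the difference in the share enriched was 34.1 percentage points at a fold of at least 2, 12.4 at 4 and 19 at the stricter −log10 p, against 25.1 as reported, and the difference in medians was 2.16 with missing clusters set to 0, against 1.65.

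With missing clusters set to 0, limma called 10860 regions higher and 903 lower among 169063, a larger set in which clusters missing from both libraries of a group have no spread. Higher and lower counts were 71 and 1 after centring, 69 and 5 among 1253 regions past a −log10 p of 3, 84 and 0 with a spread shared with the endogenous libraries (1701 regions), and 32 and 0 with robust eBayes; the cause was not tested. Leaving out single libraries gave 4 to 68 and 0 to 5. With the replicate number as a block, limma called 41 and 1; the deviations of same-numbered libraries had a correlation of −0.04, so the numbers are not taken as pairs. Of the 20 largest differences called higher and the region called lower, none reversed sign under the alternatives that tested it (the last was not in the set with a shared spread). Of these 21, 4 stayed past the threshold without mutant 1, 4 without mutant 2, 19 with robust eBayes and 19 with missing clusters set to 0. Depth is unknown, so a cluster that is not listed cannot be told apart from a weak one.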

Other observations

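A stretch of chromosome X (hg19, 139805573 to 139807834, plus strand) held 6 unnamed regions that stood out in the tagged libraries only, since no endogenous cluster lay there. Of these, 5 were enriched in both mutant libraries, with log2 folds of 3.02 to 4.41 in mutant 1 and 3.46 to 4.21 in mutant 2. Of those 5, 1 was enriched in wild type 2 (3.65) and none in wild type 1. The sixth, at its downstream end, was enriched in both wild type libraries (3.06 and 3.65) and in mutant 2 (3.65), and was at 1.53 in mutant 1, which made it a kept site. The stretch was singled out after its values were seen.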
